A study of Mus musculus with 2 samples.

Results

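Bcl11a, Sox6, Zbtb7a and Ikzf1, 4 of the 22380 protein-coding genes of the mouse annotation, encode transcription factors known for repressing embryonic and fetal globin genes in red cells. The DNase I hypersensitive sites of these genes were chosen by position alone. Every peak whose summit lay in the gene body or within 50 kb of either end was kept, which gave 447 of 400000 deposited peaks, 200 from G1E-ER4 cells and 247 from G1E cells. Bcl11a held 140 of them, Zbtb7a 153, Ikzf1 100 and Sox6 54.

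DNase-seq marks places where chromatin is loose enough for the nuclease DNase I to cut, as active promoters and enhancers usually are. G1E is a mouse erythroid progenitor line, of strain 129 and male, that has no Gata1, the transcription factor that red cell maturation needs, and it was left untreated. G1E-ER4 is the corresponding line in which Gata1 was put back in a form that estradiol activates, and it was harvested 24 h after the addition of 10 nM beta-estradiol. The labels derive both lines from embryonic stem cells (embryonic day 0). Restored gene, hormone, line and sample differ together and cannot be told apart. For each state there was 1 sample, with 2 deposited lists of 100000 peaks, and whether these lists come from separate cultures is not stated in the labels. No test between the states was therefore made. A difference is instead set beside the spread between the 2 lists of a state and beside the share of all sites of the genome that met the same rule.

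Red cells of the embryo use other globin genes than those of the adult, and the switch needs repressors that hold the early genes silent. Bcl11a is a zinc finger protein that recruits the NuRD corepressor complex to the early globin genes, and its own level in red cells depends on an enhancer inside one of its introns. Sox6, a factor with an HMG box, binds near the embryonic beta-like globin gene and works with Bcl11a. Zbtb7a, also called LRF, is a BTB zinc finger repressor that silences early globin genes independently of Bcl11a, and Ikzf1, or Ikaros, is a zinc finger factor of lymphoid and erythroid cells that binds in the beta-globin locus. Gata1 binds the letters A or T, then GATA, then A or G, which are called the GATA motif here.

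The sequences on which the results turn are given first, as 200 bases around the median summit of each site, read from the mm9 genome in the direction of the gene's transcription. Capitals mark GATA motifs on either strand (AGATAA or TGATAA or AGATAG or TGATAG, or the reverse complement). Names give the distance of the site from the first annotated start of the gene. The first 2 lie in an intron of Bcl11a, in the stretch from 50 to 65 kb that holds its known erythroid enhancer. The next 3 lie in introns of Ikzf1, and the last 4 are the upstream site of Sox6, its strongest intron site of G1E alone, the only intron site of Zbtb7a in all lists, and a site upstream of Zbtb7a found in G1E-ER4 alone.
Bcl11a +51.8 kb (chr11:24029764-24029963, + strand): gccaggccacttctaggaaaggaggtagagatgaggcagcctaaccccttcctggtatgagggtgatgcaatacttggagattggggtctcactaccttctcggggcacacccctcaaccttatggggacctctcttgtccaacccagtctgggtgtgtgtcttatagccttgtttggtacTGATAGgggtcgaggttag
Bcl11a +58.3 kb (chr11:24036268-24036467, + strand): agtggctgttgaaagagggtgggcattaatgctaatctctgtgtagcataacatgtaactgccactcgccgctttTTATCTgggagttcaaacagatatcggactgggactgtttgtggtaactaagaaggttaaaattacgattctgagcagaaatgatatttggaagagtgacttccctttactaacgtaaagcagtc
Ikzf1 +27 kb (chr11:11611885-11612084, + strand): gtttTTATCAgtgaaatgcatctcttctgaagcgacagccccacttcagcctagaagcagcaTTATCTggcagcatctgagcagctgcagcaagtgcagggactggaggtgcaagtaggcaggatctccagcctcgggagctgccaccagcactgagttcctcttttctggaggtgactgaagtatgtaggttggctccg
Ikzf1 +44.4 kb (chr11:11629280-11629479, + strand): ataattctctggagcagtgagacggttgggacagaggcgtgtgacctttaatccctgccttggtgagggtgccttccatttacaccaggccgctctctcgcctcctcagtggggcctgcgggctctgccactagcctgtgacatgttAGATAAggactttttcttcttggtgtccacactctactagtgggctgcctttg
Ikzf1 +50.3 kb (chr11:11635243-11635442, + strand): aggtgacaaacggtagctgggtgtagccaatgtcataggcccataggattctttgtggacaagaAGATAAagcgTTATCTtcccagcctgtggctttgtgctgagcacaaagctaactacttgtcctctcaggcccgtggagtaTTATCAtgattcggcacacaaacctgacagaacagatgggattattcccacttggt
Sox6, 1.6 kb upstream (chr7:123183785-123183984, - strand): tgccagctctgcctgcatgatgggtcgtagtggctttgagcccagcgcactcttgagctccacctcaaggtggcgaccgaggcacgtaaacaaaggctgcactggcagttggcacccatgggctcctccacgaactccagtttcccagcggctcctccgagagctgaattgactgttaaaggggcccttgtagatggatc
Sox6 +488.1 kb (chr7:122694067-122694266, - strand): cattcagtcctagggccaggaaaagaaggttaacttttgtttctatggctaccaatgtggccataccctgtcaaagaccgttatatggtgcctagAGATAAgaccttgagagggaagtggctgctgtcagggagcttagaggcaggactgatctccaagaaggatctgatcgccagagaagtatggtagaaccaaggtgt
Zbtb7a +17.3 kb (chr10:80615145-80615344, + strand): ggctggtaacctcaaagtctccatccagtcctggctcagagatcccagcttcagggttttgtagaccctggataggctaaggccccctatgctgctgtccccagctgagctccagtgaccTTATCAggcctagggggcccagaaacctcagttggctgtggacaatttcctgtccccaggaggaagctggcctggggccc
Zbtb7a, 44.4 kb upstream (chr10:80553454-80553653, + strand): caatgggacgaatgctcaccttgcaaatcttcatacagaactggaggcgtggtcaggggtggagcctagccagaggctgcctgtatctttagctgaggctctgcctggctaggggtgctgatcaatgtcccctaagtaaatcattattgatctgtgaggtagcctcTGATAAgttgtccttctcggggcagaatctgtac

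The deposited value of a peak is its F-seq density, a smoothed count of cuts, for which no scaling between lists is stated. It is used here as a percentile, the place of the peak in its own list, with 100 for the strongest. Median peak width ran from 520 to 836 bp over the 4 lists, so a wide peak of one list can span several summits of another. Read depth is unknown. The cell type was checked on promoters, counting a gene where a summit lay within 1000 bp of an annotated start. Of 10 erythroid marker genes, 8 had such a summit in all 4 lists, against 2 of 8 B cell, 4 of 8 T cell, 3 of 7 megakaryocyte, 2 of 7 granulocyte and monocyte, and 0 of 6 non-blood markers. Over all protein-coding genes the share was 45.7%.

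The number of open sites differed widely between the 4 genes. Zbtb7a, a short gene of 17.8 kb among 7 other genes, had 39, 41, 39 and 34 peaks in G1E-ER4 lists 1 and 2 and G1E lists 1 and 2, which covered 45.7 to 52.6% of its 118 kb window. Sox6, with a body of 567 kb one of the longest of mouse genes, had 5, 13, 13 and 23 peaks, which covered 0.68 to 3.08% of its window. Bcl11a (96.1 kb) had 27, 36, 33 and 44 peaks, and Ikzf1 (87.9 kb) had 15, 24, 29 and 32. The lowest count of each of Bcl11a, Sox6 and Ikzf1 was that of G1E-ER4 list 1, and the highest that of G1E list 2. Only at Ikzf1, and not at the other 3 genes, did both G1E lists hold more peaks than both G1E-ER4 lists.

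**Figure D1:**
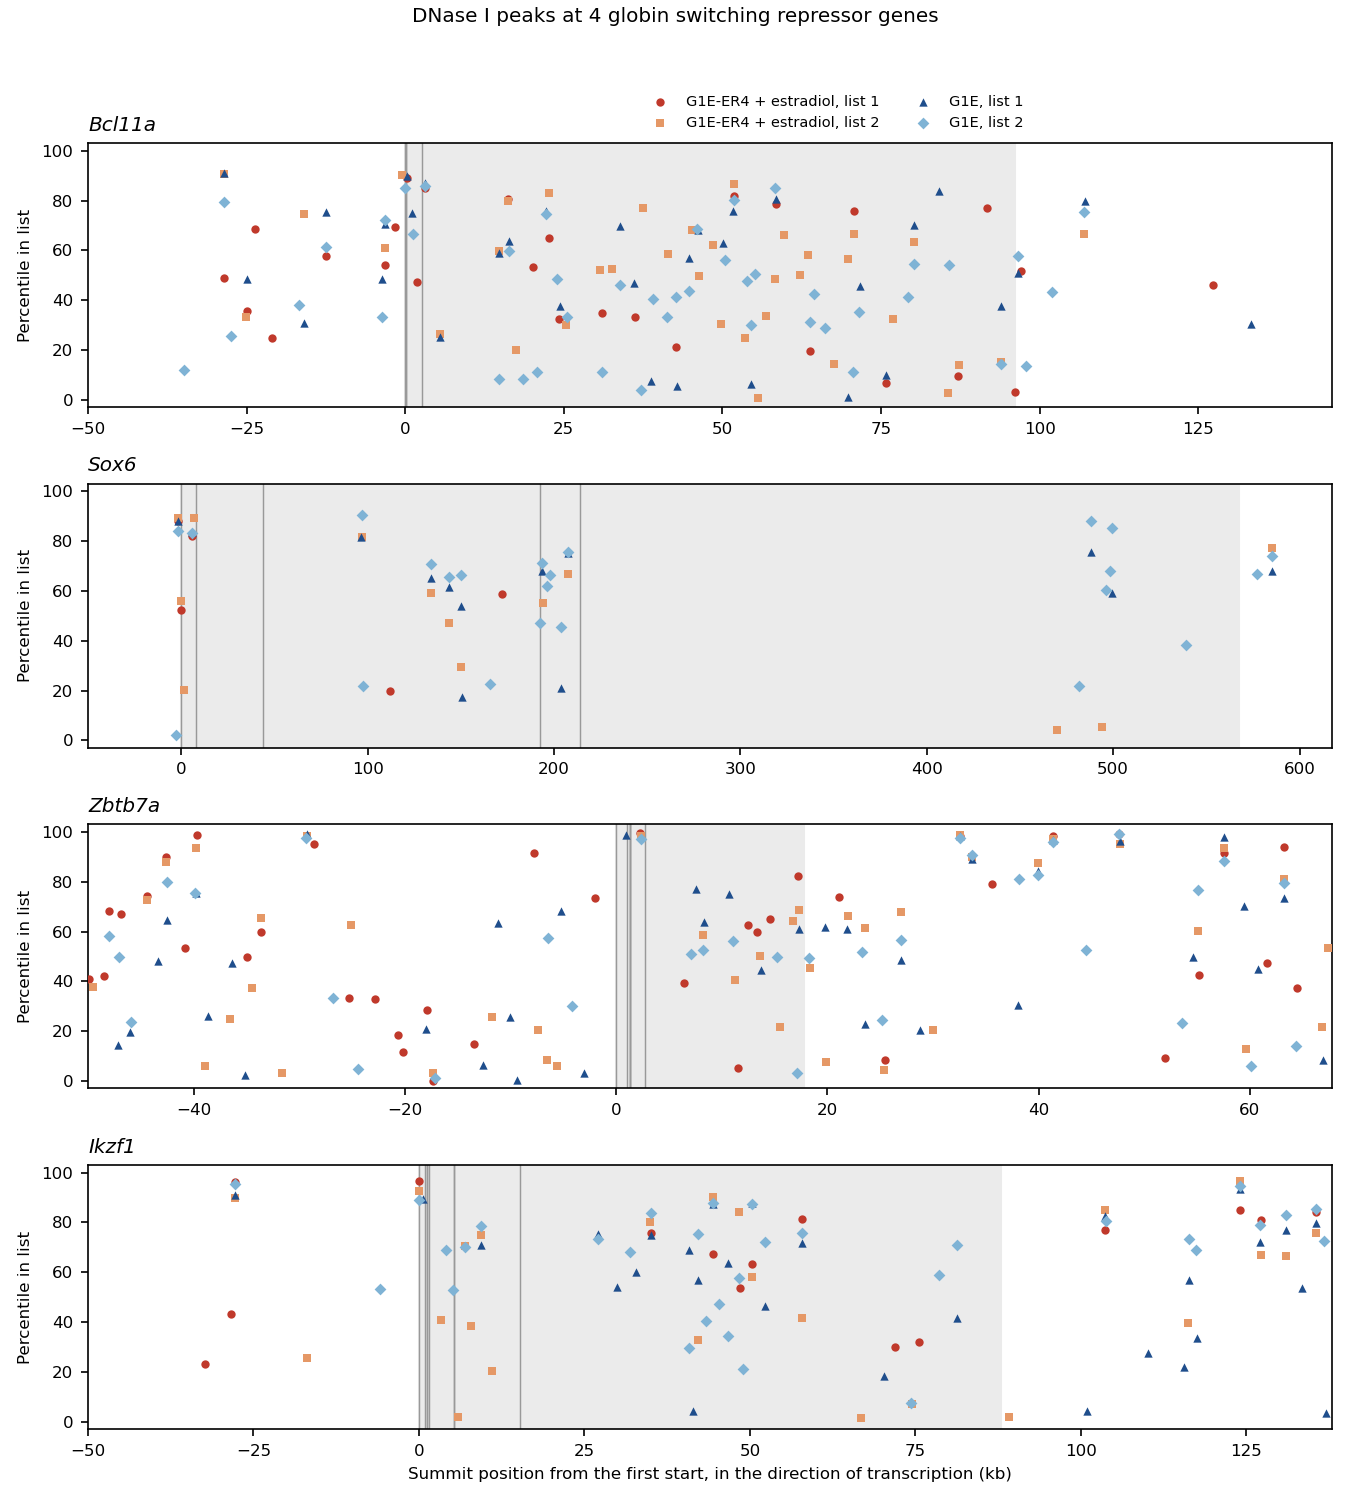
Every peak at the 4 genes, by distance of its summit from the first start (kb, in the direction of transcription) and percentile in its list, with 1 colour and marker per list. Grey marks the gene body and vertical lines the annotated starts; peaks fill the Bcl11a intron and the Zbtb7a window, while Sox6 has long stretches without any.

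Summits of different lists that lay within 200 bp of each other were taken as 1 site, without merging the peaks. This gave 260 sites, 84 at Bcl11a, 91 at Zbtb7a, 53 at Ikzf1 and 32 at Sox6. A summit of all 4 lists was found at 23 of them (8.85%), close to the 8.20% of all 261530 sites of the genome. These shared sites numbered 9 at Ikzf1, 8 at Zbtb7a, 5 at Bcl11a and 1 at Sox6. Per 100 kb of window, Zbtb7a had 6.79 shared sites, more than 92.7% of genes, Ikzf1 had 4.79 and Bcl11a 2.55. Sox6 had 0.15, below the median gene (1.68). Another 153 sites had a summit in 1 list alone, although peaks of other lists lay over many of them. No genome share was counted for these.

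Sites of 1 state alone were counted where both of its lists had a summit and no peak of the other state overlapped. G1E alone had 13 such sites (5% of 260, against 2.65% of all sites of the genome), and G1E-ER4 alone had 5 (1.92%, against 1.17%). By gene, G1E alone had 6 at Ikzf1, 3 at Sox6, 2 at Bcl11a and 2 at Zbtb7a. The 6 sites of Ikzf1 are more than 99.3% of genes have, a rank of counts per window that was not adjusted for length, and the body of Ikzf1 is longer than that of 87.6% of genes. In the other direction Zbtb7a had 3, Bcl11a and Sox6 1 each, and Ikzf1 none. Without G1E-ER4 list 1, the list with the fewest peaks here, G1E alone had 15 sites of 227 (6.61%, against 5.39% over the genome), 6 of them still at Ikzf1 and 3 at Sox6. G1E-ER4 alone, then judged by list 2, had 31 (13.7%, against 20.4%). The share for G1E alone depended on the lists. It was 16.3% without G1E-ER4 list 2 (36 of 221 sites, against 6.62% over the genome) and 19.7% without G1E list 1 (45 of 228, against 17.4%). Without G1E list 2 it was below the genome share, at 11.6% (25 of 215, against 15.3%), although 14 of the 25 were at Ikzf1. For G1E-ER4 alone the shares were 11.3% (25 sites, against 22.3%), 2.63% (6, against 1.92%) and 4.19% (9, against 2.43%) in the same order. The numbers of peaks also differed over wider stretches. In the fixed 10 Mb stretch of the chromosome that holds each gene, peaks of G1E-ER4 over those of G1E gave a log2 ratio of -0.29 for Ikzf1, -0.26 for Bcl11a, -0.11 for Sox6 and -0.02 for Zbtb7a. Over the whole chromosome the ratio was 0.48 for Sox6, -0.15 for Zbtb7a and 0 for Bcl11a and Ikzf1. The part of these ratios in the counts was not tested.

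**Figure D2:**
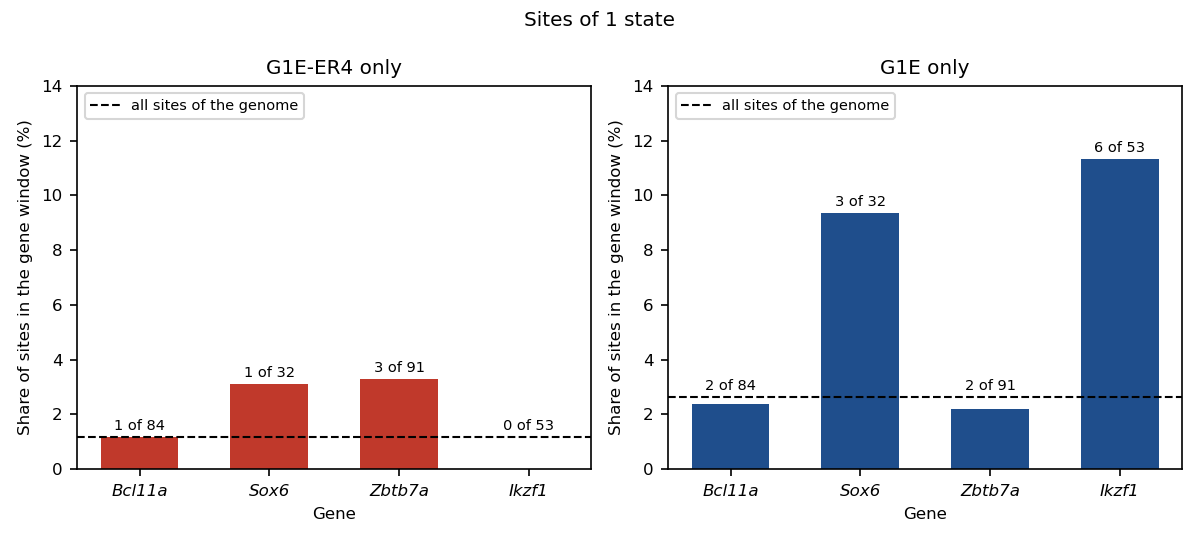
Share of the sites in each gene window (%) that were found in both lists of 1 state and overlapped no peak of the other, with the counts above the bars and the share over all sites of the genome as a dashed line. The G1E share stands highest at Ikzf1 (6 of 53) and Sox6 (3 of 32), and the G1E-ER4 share at Zbtb7a (3 of 91) and Sox6 (1 of 32).

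Ranking was compared at the 23 shared sites. Both G1E-ER4 percentiles lay above both G1E percentiles at 8 of them (over the genome this held for 16.9% of shared sites), and both G1E percentiles lay above at 3 (genome 16.3%). At the other 12 the states overlapped. Of the 8 sites higher in G1E-ER4, 6 were in the Zbtb7a window and 2 in Bcl11a introns. The 3 sites higher in G1E were 2 at Bcl11a and 1 at Ikzf1. Without G1E-ER4 list 1 the balance turned, with 15 shared sites higher in G1E-ER4 and 17 higher in G1E. The median difference of the state means (G1E-ER4 minus G1E) over the 23 sites was -0.63 percentile points, beside -0.54 over all shared sites of the genome.

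**Figure D3:**
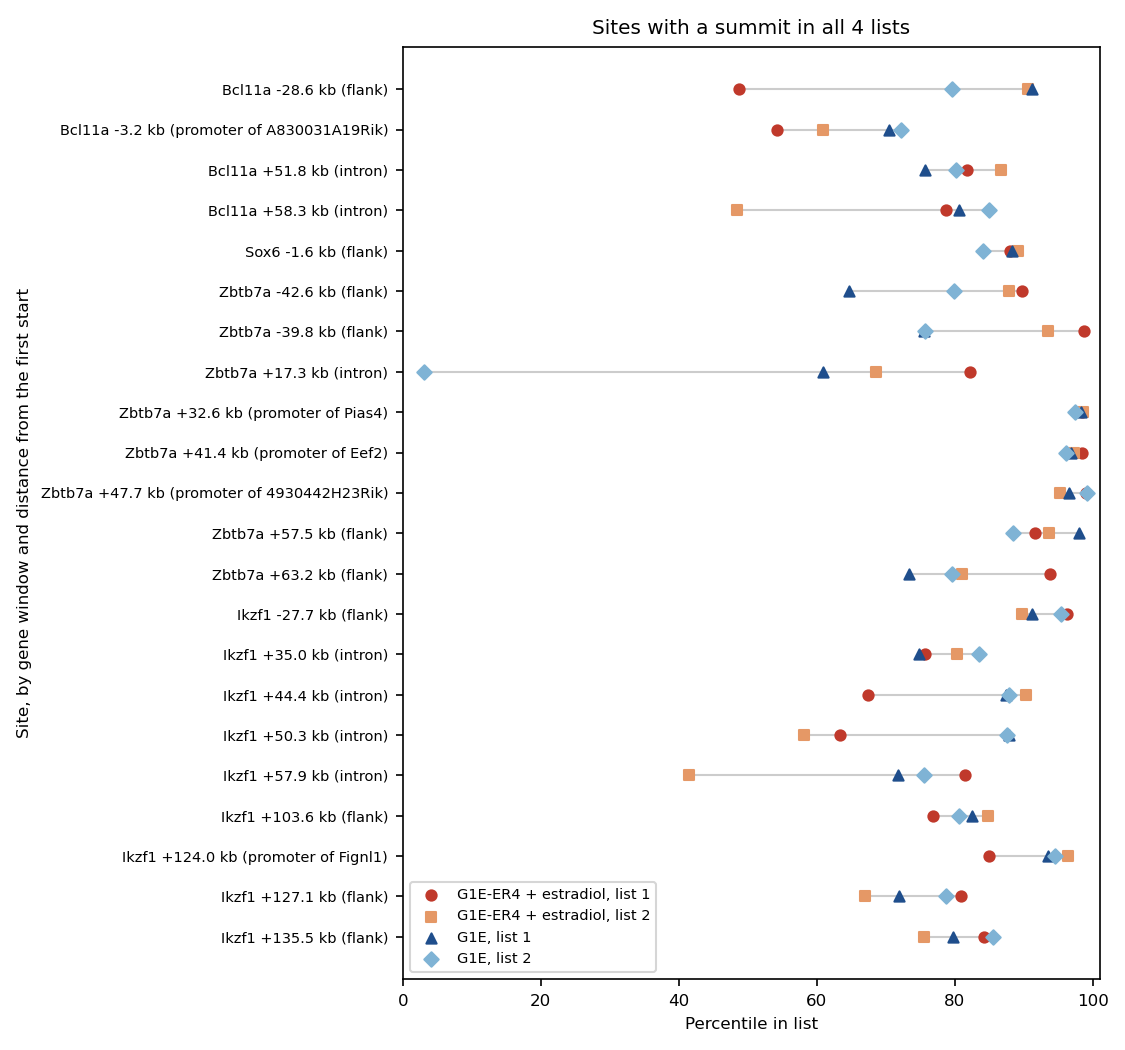
Percentile of the strongest peak in each of the 4 lists at 22 of the 23 sites with a summit in all of them, named by gene window, distance from the first start and position. The states stand clear of each other at Ikzf1 +50.3 kb and upstream of Zbtb7a, while most Ikzf1 sites mix the lists.

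All 4 genes had a promoter peak in every list of both states, at ranks from the top (Zbtb7a) to below most genes (Sox6). The best promoter peak of Zbtb7a, within 1000 bp of any of its starts, had percentile values of 99.5 (list 1) and 98.6 (list 2) for G1E-ER4 and of 98.9 and 97.3 for G1E. The 2 states overlap, and the difference of their means, 0.94 points, is near the SD between lists of a state, 0.89 points. Its mean percentile was above that of 93.8% of genes with a promoter peak in all 4 lists, whereas those of Ikzf1, Bcl11a and Sox6 were above 38.1, 24.9 and 6.53% of them. At Bcl11a the values were 88.9 and 90.1 for G1E-ER4, 89.7 and 85.9 for G1E, which also overlap (difference 1.67 points, SD 1.99), and without G1E list 2 the difference was -0.23 points. The Ikzf1 promoter was the one that did not overlap. It stood at 96.6 and 92.5 in G1E-ER4 and at 89.5 and 88.9 in G1E, higher in G1E-ER4 by 5.30 points with an SD between lists of 2.05 points. Among all genes with a promoter peak in every list, 12.6% were higher in both G1E-ER4 lists and 13.9% in both G1E lists.

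The summits of these promoters shifted between lists within 1 wide open stretch. At Zbtb7a, G1E list 1 had its summit 0.95 kb after the first start and the other 3 lists had theirs 2.26 to 2.38 kb after it, yet peaks of all 4 lists spanned both places. At Bcl11a the lists had summits from 0.50 kb before to 0.29 kb after the first start, and a further start 2.61 kb downstream had peaks at 84.9 in G1E-ER4 list 1 and at 87.2 and 85.9 in G1E. Ikzf1 has later starts too. Those 5.26 and 5.33 kb downstream had a summit in G1E-ER4 list 2 (percentile 2.01) and G1E list 2 (52.8) only, and the start at 15.2 kb had none in any list.

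Sox6 has 5 annotated starts spread over 214 kb, and no start had a summit of all 4 lists within 1000 bp. The first start had peaks at percentiles 52.2 and 56.0 in G1E-ER4 and no overlapping peak in G1E, and it is the only site of G1E-ER4 alone at this gene. The start 7.70 kb downstream had a summit in G1E-ER4 list 2 alone (89.4), but that peak belongs to an open stretch with a site at 5.62 kb where the other lists stood at 82.1, 83.9 and 83.3. The start 193 kb downstream had summits at 68.1 and 47.2 in the G1E lists only. A G1E-ER4 peak lay over the site of the first of these, so that site is not of G1E alone. The nearest summit of G1E-ER4 list 2 (percentile 55.0) lay 194 kb downstream of the first start, beyond the 1000 bp. A stronger peak of G1E list 2 (71.3), whose summit linked with that of G1E list 1, also lay just beyond this limit. Starts at 43.7 and 214 kb had none. The best promoter values of the gene, 52.2 and 89.4 for G1E-ER4, 68.1 and 47.2 for G1E, therefore come from different starts. They overlap, with a difference of 13.2 points and an SD between lists of 21.3 points. Without G1E-ER4 list 2 the difference was -5.39 points. The values also depend on the limit of 1000 bp, which leaves out the shared site 1.63 kb upstream (84.1 to 89.2 in all 4 lists). With a wider limit the difference was 2.52 points. The low rank of Sox6 among genes, given above, holds for the 1000 bp limit and was not recomputed with the wider one.

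**Figure D4:**
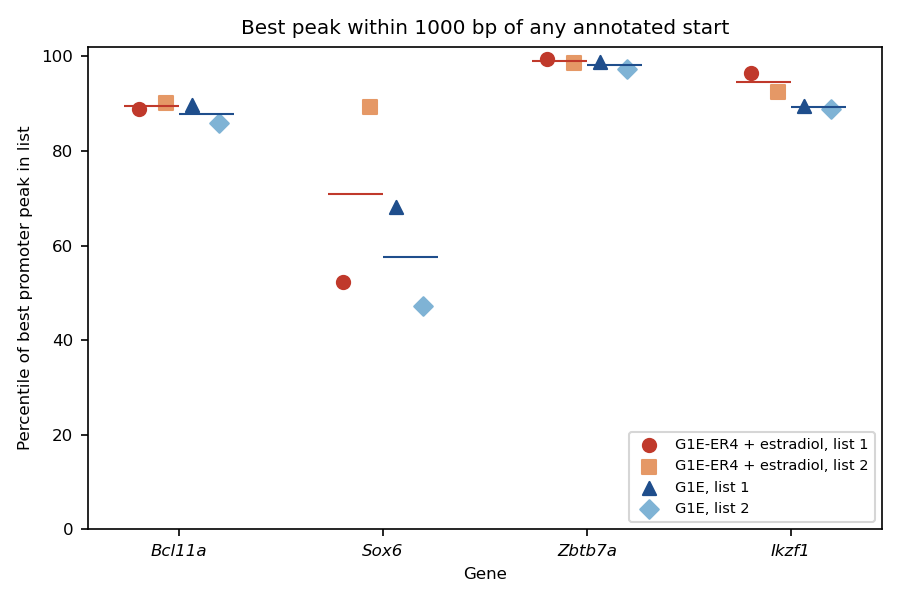
Percentile of the best peak within 1000 bp of any annotated start, for each gene and list, with short lines at the mean of each state. Zbtb7a lies near the top in all lists, Ikzf1 is higher in both G1E-ER4 lists than in both G1E lists, and the lists of Sox6 are far apart within each state.

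Bcl11a carried 56 intron sites, the most of the 4 genes, and 3 of them were in all 4 lists (5.36%, beside 5.38% of intron sites over the genome). Both G1E-ER4 lists were higher at 2 of the 3 and both G1E lists at 1. Over the genome, 21.3% of shared intron sites were higher in both G1E-ER4 lists and 17.8% in both G1E lists. The median difference over the 3 sites was 6.34 points. It was -0.93 points without G1E-ER4 list 1 (6 shared intron sites), 0.80 without list 2 (4 sites) and 12.3 without G1E list 1 (4 sites).

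The stretch of the known erythroid enhancer of Bcl11a was open in both states. From 50 to 65 kb after the first start, 15 intron sites were counted. Counted by summit, 2 of these were in all 4 lists, 2 in 2 lists and 11 in 1 list, and none was of 1 state alone. The site at +51.8 kb was the strongest shared intron site of the gene, at percentiles 81.8 and 86.8 in G1E-ER4 and at 75.6 and 80.2 in G1E. The site at +58.3 kb stood at 78.7 and 48.4 in G1E-ER4 and at 80.6 and 84.9 in G1E. The first was higher in both G1E-ER4 lists and the second in both G1E lists, but by gaps of only 1.55 and 1.88 points, which are smaller than the spread between the 2 lists of either state. Farther along, toward 65 kb, no site had a summit in more than 2 lists. G1E-ER4 list 2 alone had summits at 59.7 kb (66.0), 62.2 kb (50.2) and 63.5 kb (58.2). A pair lay at 63.8 kb, in G1E-ER4 list 1 (19.8) and G1E list 2 (31.1). G1E list 2 alone had a summit at 64.4 kb (42.6). The peaks of the 11 sites in 1 list ran from percentile 0.842 to 66.0.

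Of the sites of 1 state at Bcl11a, those of G1E alone were of middle strength and that of G1E-ER4 alone was weak. G1E alone had an intron site at +33.8 kb (69.9 and 45.9) and a site just past the gene end at +96.6 kb (50.9 and 57.6). G1E-ER4 alone had an exon site at +87.2 kb, at percentiles 9.40 and 13.8, which are among the lowest of their lists. Upstream, a site 3.21 kb before the first start, at a start of the neighbouring gene A830031A19Rik, was higher in G1E, with 54.2 and 60.8 for G1E-ER4, 70.5 and 72.2 for G1E. Another, 28.6 kb upstream, reached 90.7 and 91.2 in G1E-ER4 list 2 and G1E list 1 but 48.8 in G1E-ER4 list 1 and 79.6 in G1E list 2. Its G1E-ER4 lists differed more from each other than the means of the states did.

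Ikzf1 had the most intron sites of G1E alone among the 4 genes. Of its 30 intron sites, 5 were of G1E alone (16.7%, where intron sites over the genome gave 2.81%) and none of G1E-ER4 alone (genome 1.39%). The strongest, at +27 kb, ranked at percentiles 75.1 and 73.3 in G1E lists 1 and 2. Those at +40.7, +46.7, +52.3 and +81.3 kb stood at 68.7 and 29.7, 63.8 and 34.2, 46.4 and 72.1, and 41.7 and 70.9 in the same order. These 4 differed much between the 2 G1E lists and were of middle strength. The remaining site of G1E alone lay at +117 kb, inside the neighbouring gene Fignl1, at 33.5 and 68.9. The lead of Ikzf1 over the other genes depended on the rule. With the top 50% of each list, its window had 3 sites of G1E alone and that of Sox6 had 4, and with the top 25% both had 2. Where peaks of G1E-ER4 with a summit elsewhere were allowed to overlap, Bcl11a had 8 and Ikzf1 6. Without G1E-ER4 list 2 the counts were 12 at Bcl11a and 10 each at Ikzf1 and Sox6, and without G1E list 1 they were 13, 13 and 14.

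Among the shared sites of Ikzf1, the intron site at +50.3 kb had the widest gap of all 23. Its percentiles were 63.3 and 58.2 for G1E-ER4, 87.9 and 87.5 for G1E. The lists of each state lie close together and the states are 24.2 points apart, a gap that 0.905% of all shared sites of the genome reached in this direction. The other 3 shared intron sites overlapped between the states. The site at +44.4 kb, the strongest by mean, stood at 67.4 and 90.3 in G1E-ER4 and at 87.4 and 87.8 in G1E. At +35.0 kb the values were 75.6, 80.3, 74.8 and 83.6, and at +57.9 kb 81.5, 41.5, 71.8 and 75.5, in the order of the lists used above. G1E-ER4 list 1 was low at the first of these and list 2 at the last. Over the 4 intron sites the median difference was -10.4 points, and it ran from -14.6 to -8.96 when each list was left out in turn. The genome median for shared intron sites was 0.38 points. While the intron sites leaned to G1E, the promoter of the gene, as given above, ranked higher in G1E-ER4.

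Outside the gene body, a site 27.7 kb upstream of Ikzf1 was among the strongest in all 4 lists, at 96.3 and 89.8 in G1E-ER4 and at 91.2 and 95.4 in G1E. It lies between genes, and its states overlap. Downstream, the promoter of Fignl1, a gene of DNA repair, stood at 84.9 and 96.4 in G1E-ER4 and at 93.6 and 94.5 in G1E. The remaining 3 shared sites, from 104 to 135 kb, ranged from percentile 67.0 to 85.5 and overlapped as well.

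At Sox6 the open sites were few, and 14 of its 24 intron sites had a summit in 1 list alone. Intron peaks numbered 3 and 8 in G1E-ER4 lists 1 and 2, and 10 and 18 in G1E lists 1 and 2. The single shared site lay 1.63 kb upstream of the first start, at percentiles 88.0 and 89.2 in G1E-ER4 and at 88.2 and 84.1 in G1E, with no difference beyond the spread between lists. None of the 24 intron sites had a summit in all 4 lists, but 5 had one in every list but G1E-ER4 list 1. The strongest of these, at +96.7 kb, stood at 81.6 in G1E-ER4 list 2 and at 81.6 and 90.3 in G1E. The site at +208 kb stood at 67.0 and at 75.4 and 75.5, that at +134 kb at 59.1 and at 65.1 and 70.9, and that at +144 kb at 47.3 and at 61.5 and 65.6. At +150 kb the values were 29.6 and then 53.9 and 66.4. G1E-ER4 list 2 was thus below both G1E lists at 4 of the 5, and level with G1E list 1 at +96.7 kb. Without G1E-ER4 list 1, the gene had 7 shared sites. Both G1E lists were higher at 4 of these, the intron sites just given. G1E-ER4 list 2 was higher at 2, both outside the gene body. These were the upstream site and one at +585 kb, past the gene end (77.4, against 67.9 and 74.1 in G1E). No genome share was counted for these orders, and with 1 list against 2 each asks less of a site.

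G1E alone had 3 intron sites at Sox6. Those at +488 kb and +500 kb lie deep in the gene, at percentiles 75.8 and 88.0, and 59.3 and 85.4, in G1E lists 1 and 2. Between them G1E list 2 had 2 peaks of its own (60.4 and 68.1) and G1E-ER4 list 2 a very weak one in an exon (5.50). The third, at +204 kb, was weak, at 21.1 and 45.7. Neither G1E-ER4 list had a peak over any of these 3 sites, and the strongest, at +488 kb, is printed above with its 1 GATA motif.

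Zbtb7a leaned the other way. Its gene body is short, and most sites of its window (63 of 91) were flank sites in or between neighbouring genes, so they cannot be given to Zbtb7a itself. The strongest contrast lay upstream, inside Creb3l3, a gene for a liver transcription factor. There a site 39.8 kb upstream of Zbtb7a ranked at percentiles 98.7 and 93.5 in G1E-ER4 and at 75.5 and 75.6 in G1E, and one 42.6 kb upstream at 89.8 and 87.9 in G1E-ER4 and at 64.7 and 79.9 in G1E. Both were higher in both G1E-ER4 lists, by gaps of 17.9 and 8.01 points. Gaps of these sizes were reached in this direction by 1.27 and 3.71% of all shared sites of the genome. Of the other 4 sites higher in G1E-ER4, 3 had small gaps, of 0.082 points at the promoter of Pias4, 0.46 at that of Eef2 and 1.45 inside Itgb1bp3; the fourth is the intron site at +17.3 kb.

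Close to them lay 2 of the 3 sites of G1E-ER4 alone, 44.4 kb upstream inside Creb3l3 (percentiles 74.3 and 72.5) and 33.6 kb upstream (59.7 and 65.6). The third, 25.2 kb upstream inside the kinase gene Map2k2, was weaker, at 33.3 and 62.8. G1E alone had a weak site 46.0 kb upstream (19.7 and 23.7) and one at +38.1 kb between genes, where its lists differed widely (30.4 and 81.2). The promoters of 3 neighbours were shared and near the top of all lists, those of Pias4, Eef2 and 4930442H23Rik, at percentiles from 95.3 to 99.1.

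Within the body of Zbtb7a, 10 intron and 5 exon sites were counted, and only the intron site at +17.3 kb near the gene end was in all 4 lists. It stood at 82.2 and 68.6 in G1E-ER4 and at 60.9 and 3.11 in G1E. The G1E-ER4 lists are higher, but G1E list 2 alone makes the difference of means as large as 43.4 points. When summits within 500 bp were linked, the shared intron sites numbered 2 and the median difference was 0.25 points. Without G1E list 2 the difference at +17.3 kb was 14.5 points. A further intron site, at +8.26 kb, was in every list but G1E-ER4 list 1, at 58.7 in G1E-ER4 list 2 and at 63.8 and 52.8 in G1E, a difference of 0.43 points. When G1E-ER4 list 1 was left out, the summits at +17.3 kb no longer linked into a site of all lists left, and the site at +8.26 kb was the only shared intron site.

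The shared sites outside promoters often held a GATA motif. In the 200 bases around the summit it was found at 13 of 18 of them (72.2%), and at 36.6% of the 14167 shared sites outside promoters in the genome. A control with the letters of the motif reversed (AATAGA or AATAGT or GATAGA or GATAGT) was found at 4 of 18 (22.2%) and at 18.5% over the genome. All 8 shared intron sites held one, 4 at Ikzf1, 3 at Bcl11a and 1 at Zbtb7a, against 41.6% of shared intron sites in the genome, a count made after the values were seen. Median GC content was 53.5% at the 18 sites and 52.5% over the genome. In the 100 bases around the summit the shares were 44.4% and 22.1%, and in 400 bases 83.3% and 54.5%. It was present in the printed sites higher in G1E-ER4 (Bcl11a +51.8 kb, Zbtb7a +17.3 kb) and in those higher in G1E (Bcl11a +58.3 kb, and Ikzf1 +50.3 kb with 3 motifs). Of the other reported sites higher in G1E-ER4, those 39.8 and 42.6 kb upstream of Zbtb7a held it. Zbtb7a +63.2 kb and the promoters of Pias4 and Eef2 did not. The site higher in G1E at 3.21 kb upstream of Bcl11a held no GATA motif either. At the 17 sites of 1 state outside promoters it was found in 7 (41.2%), near the genome share of 40.3%.

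Motifs of the repressors themselves were also searched on both strands in the same windows. The BCL11A motif TGACCA was found at 3 of the 18 shared sites (16.7%, genome 13.1%), the IKAROS core TGGGAA at 5 (27.8%, genome 18.5%) and the SOX motif ACAAAG or ACAATG at 5 (27.8%, genome 20.6%). At Ikzf1 +50.3 kb there were 2 matches of the IKAROS core and 3 of the SOX motif. Of motifs of other blood factors, RUNX (TGTGGT) was found at 5 of 18 (genome 18.2%), ETS (CGGAAG or AGGAAG) at 4 (33.0%), KLF (CCACNCC) at 2 (22.7%), MYB (TAACNG) at 5 (19.1%), and NFE2 and AP-1 (TGANTCA) at 1 (8.39%). The E-box CAGNTG was found at 8 (50.0%), a core of the CTCF motif (AGGGGGC or AGGTGGC or AGATGGC or AGAGGGC) at 8 (46.2%), and CTG followed after 7 or 8 bases by AGATAA or TGATAA at 1 (5.04%). In 400 bases the CTCF core was found at 83.3% (genome 54.8%), so at that width GATA did not stand apart from it. With 18 sites, 1 site is worth more than 5 points of these shares. A match describes the letters and does not show that a factor was bound.

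**Figure D5:**
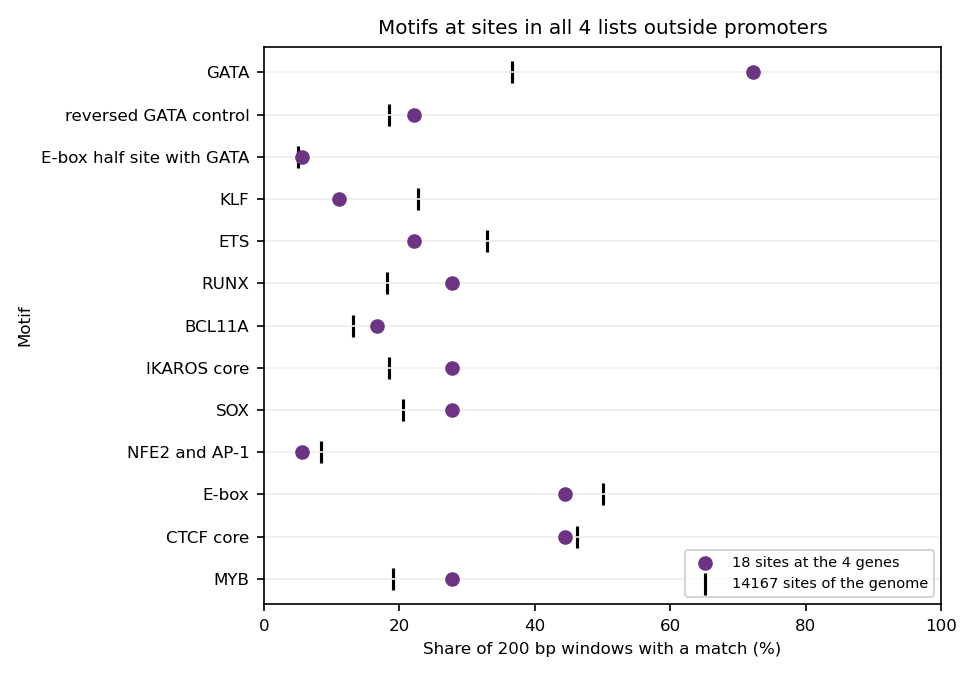
Share of 200 bp windows (%) with a match to each of 13 motifs, for the 18 shared sites outside promoters at the 4 genes (dots) and the 14167 such sites of the genome (black marks). At this width GATA, at 72.2% against 36.6%, stands farthest from its genome mark, and its reversed control lies close to its own mark.

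The promoters of genes that work with the 4 repressors were mostly open. Of 22 genes for subunits of NuRD and other corepressors, 20 had a promoter summit in all 4 lists (45.7% of all genes did), and 2 did not. Gatad2b, a NuRD subunit, had none in any list and Chd3, a NuRD remodeller, had none in G1E-ER4 list 1. Among the 20, 2 were higher in both G1E-ER4 lists and 1 in both G1E lists. Over all genes with a promoter peak in every list these shares were 12.6% and 13.9%. Of 18 other genes of globin switching, 11 had a promoter summit in all 4 lists. Those without were Klf1 (in G1E-ER4 list 1 at 96.1 and G1E list 2 at 94.0), Zfpm1, Bach1, Eif2ak1 and Nr2f2 (3 lists each), Lin28a (1 list) and Igf2bp1, a fetal RNA-binding protein gene (no list).

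The close relatives of the 4 genes had open promoters about as often as all genes. Of 9 paralogs, 4 had a promoter summit in all lists (44.4%, against 45.7% of all genes). Zbtb7b, a factor of T cell fate, stood at 97.6 to 99.7, as high as Zbtb7a. Ikzf4 lay at 91.2 to 93.4, within the range of Ikzf1, and Ikzf5 at 81.5 to 97.9. Bcl11b, the T cell relative of Bcl11a, was lower, at 65.9 and 81.1 for G1E-ER4, and 69.9 and 49.6 for G1E. Sox5, the nearest relative of Sox6, had no promoter summit in any list. Ikzf3, a factor of B cells, had promoter summits in the G1E-ER4 lists only (80.0 and 64.7), and overlap by G1E peaks was not checked there. Ikzf2, Sox13 and Zbtb7c had a summit in 3 lists.

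Genes whose best promoter peaks ranked most like those of a member were found by the largest difference over the 4 lists. For Zbtb7a they were Slc1a5 (0.24 points), Prosapip1 (0.31) and Anp32b (0.55), and for Bcl11a Paqr4 (0.92), Notch3 (1.05) and Cenpj (1.13). For Ikzf1 they were Spry1 (0.80), Pdzd2 (1.16) and Cblc (1.17). Sox6 had no close match, as its nearest, Fam20c, differed by 6.85 points in at least 1 list, followed by Rxra (7.91) and Prdm16 (8.94).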

How the data were processed

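The data are DNase-seq peaks in 4 deposited lists, 2 per sample, and each sample was assigned to its cell line by its label. According to the design text of the series, the authors aligned short tags to mm9 with Bowtie, kept tags with several matches at their best place, made a density with F-seq and called peaks from p-values of a gamma fit. Versions and thresholds are not stated. The signal the authors deposited was used only as a percentile within each list. Positions come from GENCODE vM1 on mm9 (starts of protein-coding transcripts) and are 1-based.

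Summits within 200 bp were linked into sites, and sites were placed by their median summit in a promoter (at most 1000 bp from a start), an exon, an intron or a flank. A tie between a member's promoter and another gene's went to the member. Named sites were all promoter sites, the 5 strongest shared intron sites per gene, sites of 1 state and the 3 widest gaps per direction. The rule also took the Bcl11a stretch from 50 to 65 kb. Of its sites before +58.3 kb only that at +51.8 kb is described, and the others are only counted. Of the sequences this rule gave, those overlapping an exon and those at Bcl11a +33.8 kb and Zbtb7a +38.1 kb were left out after their values were seen. Neither of the latter holds a GATA motif. Of those overlapping an exon, Bcl11a +87.2 kb holds none and Sox6 +0.1 kb holds 1. The printed sequences are therefore richer in the motif than those the rule gave. A shared intron site of Bcl11a and a marker gene are not reported here. Members and lists were chosen with earlier results of these data known. Analyses used Python 3.11.15 and pandas 2.3.3. On simulated lists, 761 of 761 shared sites, 735 of 735 sites of G1E-ER4 alone and 766 of 766 of G1E alone were recovered. The simulated sites lay far apart, with summits closer together than the linking distance, so full recovery was set in advance. It checks that the code applies the rule and does not measure accuracy in crowded windows such as those here. Alternatives were other linking distances, ranks, flanks, promoter widths, percentiles within a chromosome, sequence widths, and leaving out each list.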

Additional observations from a re-analysis of the deposited data

How the results depend on the processing

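Of 110 recomputed values for the comparisons, 71 were counted as near the reported value. A count was near if it changed by no more than a fixed factor. A difference was near if it kept its sign and moved by less than the SD between lists. Where that SD was large, values far apart still counted as near. Examples are 14.50 and 72.27 points for the Zbtb7a intron (reported 43.38) and 31.78 for the Sox6 promoter (reported 13.19). The Sox6 promoter value of 2.52, from a wider promoter limit, counted as near too. With summits linked within 100 bp the intron difference of Bcl11a was 18.57 points, from 1 site. Within 500 bp the medians were 2.46 for Bcl11a (4 sites) and 0.25 for Zbtb7a (2 sites). The top 50% of each list left 266 member peaks. The top 25% left 132, with 11 sites in all 4 lists, 1 of G1E-ER4 alone, 5 of G1E alone, 4 shared sites higher in G1E-ER4 and 0 higher in G1E. Gene bodies without flanks held 232 peaks, 8 shared sites, 2 of G1E-ER4 alone and 3 higher in G1E-ER4. Flanks of 100 kb gave 38 shared sites, 8 of G1E-ER4 alone, 14 higher in G1E-ER4 and 5 higher in G1E. Allowing overlap by peaks with a summit elsewhere gave 20 sites of G1E alone. The GATA share was 44.4% in 100 bp and 83.3% in 400 bp.

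Leaving out each list in turn gave 6 to 31 sites of G1E-ER4 alone, 15 to 45 of G1E alone, 24 to 42 shared sites, 9 to 15 shared sites higher in G1E-ER4 and 6 to 17 higher in G1E. Without G1E-ER4 list 1 the balance of the last 2 counts turned, with 15 higher in G1E-ER4 and 17 in G1E. Without each of the other lists more were higher in G1E-ER4. No genome share was counted for these orders with 3 lists. With 3 lists each rule asks less of a site. Intron differences ran from -0.93 to 12.28 points for Bcl11a over 3 to 6 sites. For Zbtb7a they ran from 0.43 to 72.27, from 1 site each time, but the lowest is the site at +8.26 kb and the others the site at +17.3 kb. Promoter differences ran from -0.23 to 3.57 for Bcl11a and from -5.39 to 31.78 for Sox6, the sign turning without G1E list 2 and without G1E-ER4 list 2, while the intron sign of Bcl11a turned without G1E-ER4 list 1. The cause was not tested. The Ikzf1 differences kept their sign, at 3.28 to 7.32 for the promoter and -14.62 to -8.96 for introns. No paired analysis was possible because each state is 1 sample and no test was made. Read depth is unknown, so an absent peak may lie below the cutoff of 100000 peaks per list.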

Other observations

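In an intron of Bcl11a, G1E lists had summits at +22.1 kb (percentiles 75.9 and 74.7) and G1E-ER4 lists at +22.7 kb (64.8 and 83.0), while peaks of all 4 lists lay over both places. The 2 states thus had their summits apart within 1 open stretch, which the count of sites of 1 state does not include. These sites were picked after their values were seen.

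Upstream of Zbtb7a, the promoter of the kinase gene Map2k2 had summits at 2 places, 28.6 kb upstream in G1E-ER4 list 1 (95.0) and 29.3 kb upstream in the other lists (98.3 in G1E-ER4 list 2, 99.1 and 97.5 in G1E), with peaks of all 4 lists over both. At the sites of 1 state outside promoters, the NFE2 and AP-1 motif TGANTCA was found in 4 of 17 (23.5%, beside 8.55% of such sites in the genome) in 200 bp, but in 1 of 17 (5.88%, beside 4.89%) in 100 bp. The CTCF core was found in 1 (5.88%, beside 21.9%) in 200 bp. Both were picked from 13 motifs after the values were seen.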
